A study of Mus musculus with 6 samples.

Results

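Transcript levels of 4 genes were followed at a pair of loci that make secreted antibacterial and RNA-cleaving proteins: the lysozyme genes Lyz1 and Lyz2, and Rnase4 with Ang. They are 4 of the 54532 gene identifiers measured, of which 10634 were abundant enough to be tested. The genes were chosen by their FPKM in these same libraries, which earlier results had shown to be lower in 1 of the 2 groups, so their differences between the groups are given as a description and carry no test. The cells were mouse bone marrow-derived macrophages, titled iBMDM, with a knockdown of either PGAM5, a protein phosphatase of mitochondria (shPGAM5), or DRP1, the GTPase that divides mitochondria (shDRP1). Each group had 3 libraries, numbered 1 to 3, and all 6 came from cells held with IL-4 at 10 ng/ml for 24 h. The series thus compares one knockdown with the other, and no library without a knockdown or without IL-4 was used here, so a lower level with PGAM5 knockdown and a higher level with DRP1 knockdown cannot be told apart.

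Lysozymes cut the sugar backbone of peptidoglycan, the mesh that walls in bacteria. The mouse has a pair of near-copies that lie side by side: Lyz2 makes lysozyme M, the form typical of macrophages and other myeloid cells, and Lyz1 makes lysozyme P, known best from the Paneth cells of the gut. Rnase4 and Ang belong to the RNase A family of small secreted ribonucleases. Ang makes angiogenin, which stimulates blood vessel growth and cleaves transfer RNA in stressed cells. Both genes are read from the same start sites, and their leader exons are spliced either to the coding exon of Ang or to that of Rnase4.

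In GENCODE M21 on mm10, Lyz1 (ENSMUSG00000069515) lies on chromosome 10 from 117287797 to 117292868 and Lyz2 (ENSMUSG00000069516) from 117277331 to 117282321. Both are on the minus strand, each with 1 transcript of 4 exons, and 5475 bases separate them. The windows just upstream of their start sites are shown because the levels of both genes differed between the groups and the windows are alike near the start. Each is the 250 bases before the RefSeq start site on build GRCm38.p6, printed 5′ to 3′ on the gene's own strand, with matches to the ETS-type motif GGAAGT (read on either strand) in capitals. The Lyz2 start in GENCODE lies 49 bases upstream of the RefSeq one, so the end of its window is leader sequence in that annotation.
Lyz1 (chr10:117292869-117293118): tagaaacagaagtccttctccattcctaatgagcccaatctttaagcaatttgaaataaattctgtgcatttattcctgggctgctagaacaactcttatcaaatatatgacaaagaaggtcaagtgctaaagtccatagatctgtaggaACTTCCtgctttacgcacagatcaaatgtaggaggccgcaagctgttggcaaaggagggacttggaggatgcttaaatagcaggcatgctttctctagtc
Lyz2 (chr10:117282273-117282522): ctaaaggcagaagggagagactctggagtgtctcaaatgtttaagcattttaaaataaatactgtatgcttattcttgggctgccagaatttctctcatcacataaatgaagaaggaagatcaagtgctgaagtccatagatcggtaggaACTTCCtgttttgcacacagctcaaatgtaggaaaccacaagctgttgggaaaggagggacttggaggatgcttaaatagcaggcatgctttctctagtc
Aligned over the whole 300-base RefSeq windows, which add 50 bases after the start, the genes were identical at 82.7% of the aligned columns. In the last 150 bases, which hold the start site, 141 of 150 bases were the same without any gap, against 60 of 150 in the first 150 bases compared in that way. Both windows had their ETS-type match at the same place, position -100 from the start.

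Rnase4 (ENSMUSG00000021876) spans 51091077 to 51106151 on chromosome 14 and Ang (ENSMUSG00000072115) spans 51091150 to 51102009, both on the plus strand, with 2 transcripts each. RefSeq lists the first window below for both genes and the second for Rnase4, while in GENCODE the second sits at the start of the transcript Ang-201. Both are printed because they are the starts from which this overlapping pair is read, with the same motif in capitals.
Rnase4 and Ang, upstream start (chr14:51090827-51091076): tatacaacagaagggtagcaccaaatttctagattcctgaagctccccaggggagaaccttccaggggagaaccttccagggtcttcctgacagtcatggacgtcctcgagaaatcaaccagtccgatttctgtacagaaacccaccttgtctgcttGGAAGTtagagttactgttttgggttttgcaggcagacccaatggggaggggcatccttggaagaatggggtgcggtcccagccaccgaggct
Rnase4 (Ang-201 in GENCODE), downstream start (chr14:51095750-51095999): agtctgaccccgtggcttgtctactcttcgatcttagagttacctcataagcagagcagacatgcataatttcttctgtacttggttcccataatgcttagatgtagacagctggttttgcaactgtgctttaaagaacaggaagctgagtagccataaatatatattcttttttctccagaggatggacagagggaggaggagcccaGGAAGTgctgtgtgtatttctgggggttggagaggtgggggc
The match lay at position -93 from the upstream start and at position -42 from the downstream one. GGAAGT or its reverse complement occurred in 4 of these 4 windows and in 23.8% of the 32817 windows of the same length. The motif was chosen after these windows had been read, and the Lyz1 and Lyz2 matches lie in near-copies of one stretch. Nothing is therefore read from the count of 4. The search covered 6 motifs on both strands, and no match of one overlapped that of another. A C/EBP-type match, TTGCNNAA, was found for Lyz1 and at the downstream start of the ribonuclease pair, as in 10.8% of windows. A GC box, GGGCGG, was found 30 bases after the upstream start, beyond the letters printed, and in 35.6% of windows. TATAAA (13.6% of windows), the AP-1-type TGANTCA (7.81%) and CACGTG (7.15%), the E-box read by MiT factors, had no match in the 4. A match is a run of letters and not a measured binding site.

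Because reads are assigned to genes by sequence, the likeness of each pair bears on its values. The coding sequences of Lyz1 and Lyz2, 444 bases each, differ at 22 positions. The 60 bases where they differ most are coding positions 61 to 120, with 9 differing bases in capitals.
Lyz1: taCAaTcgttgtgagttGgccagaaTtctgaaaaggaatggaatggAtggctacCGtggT
Lyz2: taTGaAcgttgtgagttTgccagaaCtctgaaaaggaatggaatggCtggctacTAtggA
The longest coding run that the genes share without a difference is 118 bases, from coding position 276 to 393.
Lyz1 and Lyz2: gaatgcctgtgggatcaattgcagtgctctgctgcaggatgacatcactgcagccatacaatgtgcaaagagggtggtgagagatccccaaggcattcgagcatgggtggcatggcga
A read that falls wholly inside such a run cannot be placed in either gene. Of all 50-base windows of the Lyz1 transcript, 16.1% also occurred in Lyz2, against 2.06% at 100 bases and 0% at 150 bases. No other annotated gene held any of them. Most windows therefore tell the genes apart, but neither the read length nor the treatment of reads with several hits is stated in the labels.

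Rnase4 and Ang are not alike in their coding parts, with 59.8% of aligned columns identical, but they overlap on the chromosome. They share 219 exonic bases in a pair of leader exons, 104 bases at the upstream start and 115 at the downstream one, which is 13.4% of the exonic bases of Rnase4 and 18.2% of those of Ang. All shared bases are untranslated, and the coding exons do not touch. Both genes are on the same strand, so a strand setting would not separate their leader reads. The labels do not say whether such reads were dropped or counted for both. Some 50-base windows of Ang-201 also occur in Ang2, a close relative of Ang that was listed at 0 in all 6 libraries.

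**Figure D1:**
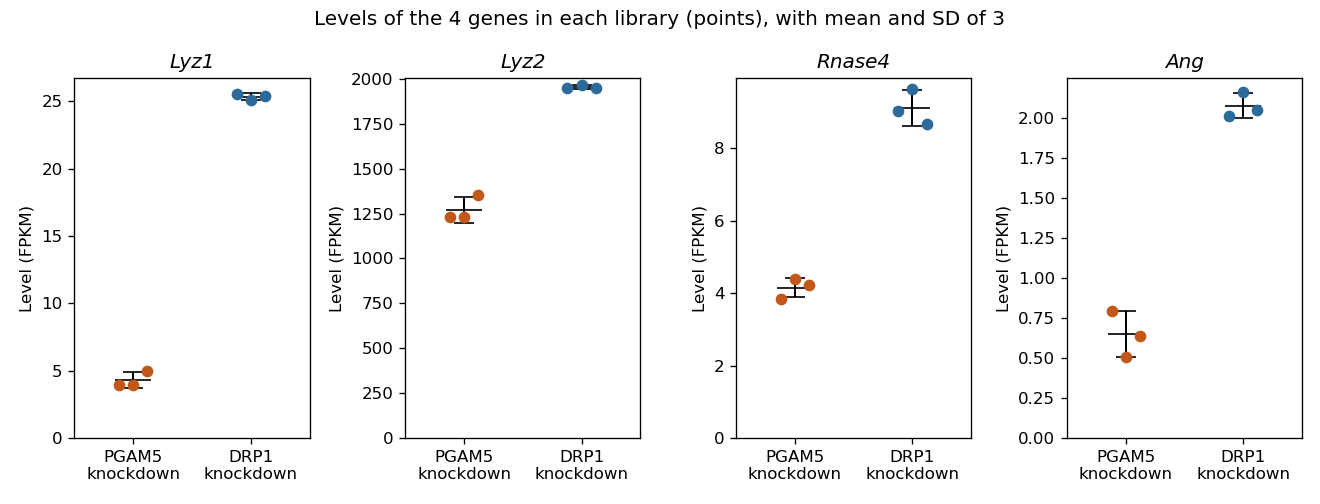
Level in FPKM (fragments counted per kilobase of exon and per library size) of Lyz1, Lyz2, Rnase4 and Ang in each library; points are libraries, bars the mean and SD of 3, and every axis starts at 0. In all 4 panels the 3 PGAM5 knockdown libraries lie below the 3 DRP1 knockdown libraries, from 3.92 to 4.97 against 25.1 to 25.6 FPKM for Lyz1.

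Lyz2 was one of the most abundant transcripts in these cells. Its level was 1229, 1231 and 1355 FPKM in PGAM5 knockdown libraries 1, 2 and 3, and 1948, 1964 and 1950 FPKM in DRP1 knockdown libraries 1, 2 and 3. By level it ranked 18 to 20 among all genes in the former and 8 in each of the latter. The groups did not overlap, and within the PGAM5 knockdown library 3 stood above libraries 1 and 2. The means were 1272 ± 71.9 and 1954 ± 8.85 FPKM (SD, n = 3), 1.54-fold lower with PGAM5 knockdown, a log2 difference of -0.62 (SE 0.043) on the log2(FPKM + 1) scale. Between 26457 and 56285 reads lay behind each value.

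Lyz1 was far rarer and differed more. It measured 3.92, 3.98 and 4.97 FPKM in PGAM5 knockdown libraries 1 to 3, and 25.6, 25.1 and 25.4 FPKM in DRP1 knockdown libraries 1 to 3. Library 3 was again the highest of the PGAM5 knockdown, at less than any DRP1 knockdown library. The means of 4.29 ± 0.59 and 25.3 ± 0.25 FPKM (SD, n = 3) were 5.91-fold apart, a log2 difference of -2.32 (SE 0.075). These levels rest on 82 to 115 reads per library against 520 to 704. The 95% Poisson limits of single libraries, which cover counting error only, reached 5.97 FPKM at most in the PGAM5 knockdown and 23.0 FPKM at least in the DRP1 knockdown.

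The lysozyme genes thus differed by unequal amounts. Lyz1 made up 0.318%, 0.322% and 0.366% of the summed lysozyme FPKM in PGAM5 knockdown libraries 1 to 3, and 1.29%, 1.26% and 1.29% in DRP1 knockdown libraries 1 to 3. The share was 3.82-fold lower with PGAM5 knockdown, at 0.335 ± 0.026% against 1.28 ± 0.018% (SD, n = 3). The percentages of the groups did not overlap, so Lyz1 was not a fixed fraction of Lyz2 over the libraries. How many Lyz1 reads came from Lyz2 transcripts was not tested. Since Lyz2 carried 77.1 ± 1.11 times (DRP1 knockdown) to 299 ± 22.6 times (PGAM5 knockdown) the level of Lyz1, the sum of both followed Lyz2, at 1276 ± 72.5 against 1979 ± 8.60 FPKM.

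**Figure D2:**
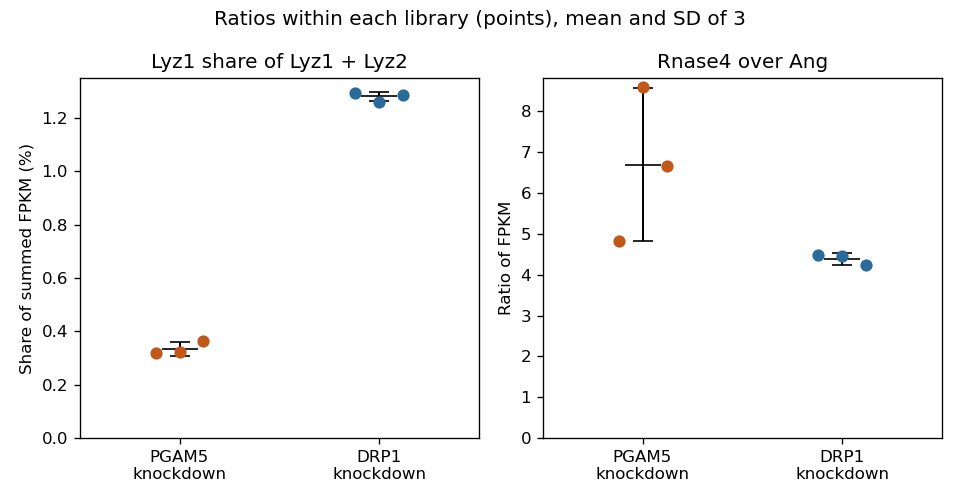
Left, Lyz1 as a percentage of the summed FPKM of Lyz1 and Lyz2; right, the ratio of Rnase4 to Ang FPKM; points are libraries and bars the mean and SD of 3. The Lyz1 share is 0.318 to 0.366% in the PGAM5 knockdown and 1.26 to 1.29% in the DRP1 knockdown, while the ratio scatters from 4.84 to 8.59 in the former and stays between 4.23 and 4.48 in the latter.

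Rnase4 was lower with PGAM5 knockdown as well. Its level was 3.85, 4.38 and 4.24 FPKM in PGAM5 knockdown libraries 1 to 3, against 9.02, 9.64 and 8.66 FPKM in DRP1 knockdown libraries 1 to 3. Every PGAM5 knockdown library lay below every DRP1 knockdown library, and neither group had a library far from its other members. The means were 4.16 ± 0.27 and 9.11 ± 0.49 FPKM (SD, n = 3), 2.19-fold apart, with a log2 difference of -0.97 (SE 0.059) and 112 to 127 against 238 to 311 reads.

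Ang was the least abundant of the 4 genes. It stood at 0.80, 0.51 and 0.64 FPKM in PGAM5 knockdown libraries 1 to 3, and at 2.01, 2.16 and 2.05 FPKM in DRP1 knockdown libraries 1 to 3. The groups again did not overlap, but few reads were behind the low values: 17, 10 and 14 against 39, 46 and 54. With 10 reads, library 2 of the PGAM5 knockdown has 95% Poisson limits of 0.244 and 0.937 FPKM. The group means of 0.65 ± 0.14 and 2.08 ± 0.079 FPKM (SD, n = 3) were 3.21-fold apart. The log2 difference of -0.90 (SE 0.087) is smaller than that fold because 1 FPKM is added before the logarithm. The mean of Ang over the 6 libraries, 1.36 FPKM, passed the minimum of 1 FPKM only through the DRP1 knockdown, whereas Lyz1, Lyz2 and Rnase4 were above it in every library.

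Rnase4 exceeded Ang in every library. Their ratio was 4.84, 8.59 and 6.66 in PGAM5 knockdown libraries 1 to 3, and 4.48, 4.45 and 4.23 in DRP1 knockdown libraries 1 to 3. The PGAM5 knockdown ratios spread widely and rest on 10 to 17 Ang reads each, and the mean ratios were 6.70 ± 1.88 and 4.39 ± 0.14 (SD, n = 3). Read over the bases that no other gene shares, in case leader reads were dropped, the levels would be 1.15-fold higher for Rnase4 and 1.22-fold higher for Ang, in all libraries alike. The order of the 4 genes by level was Lyz2, Lyz1, Rnase4, Ang in the DRP1 knockdown. With PGAM5 knockdown Lyz1 and Rnase4 did not differ beyond their spread, at 4.29 ± 0.59 and 4.16 ± 0.27 FPKM.

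**Figure D3:**
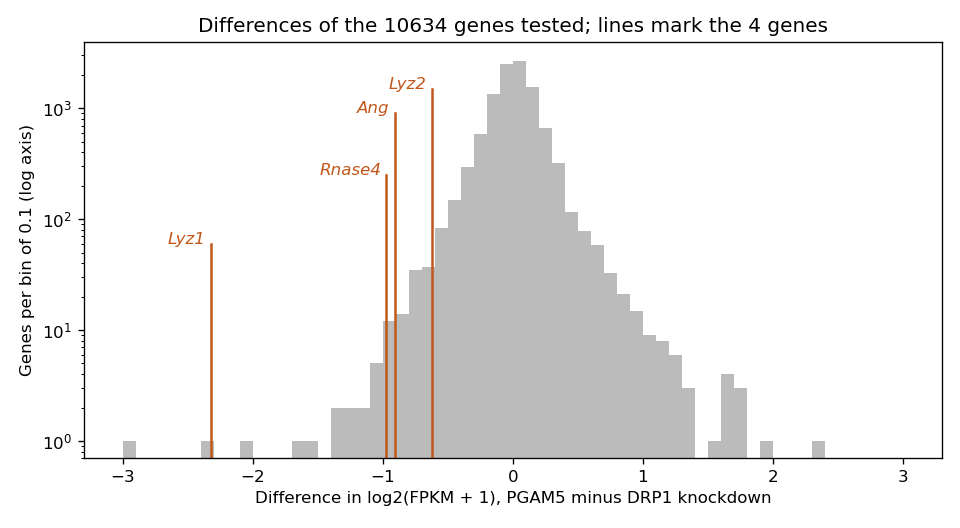
Number of genes (log axis) by difference in log2(FPKM + 1), PGAM5 minus DRP1 knockdown, for the 10634 genes tested; lines mark the 4 genes at their own difference. Lyz1 at -2.32 lies far out on the left, Rnase4 at -0.97 and Ang at -0.90 in the thin part of the lower tail, and Lyz2 at -0.62 nearer to the bulk.

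Among the 10634 genes tested, ordered from the most negative difference, Lyz1 was number 2, Rnase4 number 18, Ang number 28 and Lyz2 number 100. These ranks hold for the log2(FPKM + 1) scale, which shrinks differences at low levels. With a pseudocount of 0.1, Ang (-1.56) differed more than Rnase4 (-1.11). Ang was among the genes tested only through its DRP1 knockdown levels. The groups did not overlap for 4 of the 4 genes, all lower with PGAM5 knockdown. Of all genes tested, 43.5% had groups that did not overlap and 20.5% had them lower with PGAM5 knockdown. Since this comparison chose the genes, nothing is read from their count. The median difference over all genes was 0.0094.

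Other genes moved over the 6 libraries in nearly the same way as Lyz2, Rnase4 and Ang, while none came as close to Lyz1. Likeness was measured as the root mean square difference of log2(FPKM + 1), centred on each gene, so that 0 means the same profile. The difference between the groups, which chose the genes, enters this measure, so a small value largely means a like group difference. The profiles closest to Lyz2 were those of Ctsk, the protease cathepsin K (0.027), Vps26a, a subunit of the retromer that sorts proteins in endosomes (0.032), and Slc48a1, a heme transporter (0.040). The median over all other genes was 0.328. For Ctsk the levels were 96.6 against 151 FPKM and for Vps26a 40.8 against 62.9 FPKM, PGAM5 knockdown first.

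For Lyz1 the smallest value by the same measure was 0.322, for the unnamed gene model Gm16599, listed at 0 in every PGAM5 knockdown library and at 6.06 to 7.27 FPKM in the DRP1 knockdown. Leaving out Gm and Rik symbols, the closest were Pgam5 itself (0.372), the lincRNA AU022793 (0.394) and Igf1, which encodes an insulin-like growth factor (0.537), against a median of 1.17. Pgam5 is the target of the hairpin. For Rnase4 the closest were Dio2, the deiodinase that activates thyroid hormone (0.074), Sh3bgrl3 (0.083) and Mreg, which takes part in melanosome and lysosome transport (0.086). For Ang they were Ctse, the protease cathepsin E (0.056), Lrp12 (0.062) and Aoah, an enzyme that inactivates bacterial endotoxin (0.079). Gm16599, Igf1 (0.24 against 2.00 FPKM, PGAM5 knockdown first) and Aoah (0.68 against 1.95 FPKM) passed the minimum of 1 FPKM only through the DRP1 knockdown. Ang and Rnase4 were 0.124 apart, which placed Ang number 14 in likeness to Rnase4 and Rnase4 number 28 in likeness to Ang.

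Genes next to the loci differed little. Of 15 other annotated genes within 250 kb of the lysozymes, 4 were tested, 1 rose with PGAM5 knockdown, 1 fell and 2 did not pass (limma, Benjamini-Hochberg adjusted over all genes). Of all genes tested, 13.8% rose and 11.7% fell. Cpsf6, which makes a subunit of the pre-mRNA cleavage machinery and lies 51805 bases away, fell from 23.4 to 20.4 FPKM (log2 difference -0.19, SE 0.042, limma adjusted p = 0.016). Leaving out library 2 of the PGAM5 knockdown, or library 1 or 2 of the DRP1 knockdown, ended that call, with limma adjusted p-values reaching 0.0614. Cct2, a subunit of the chaperonin that folds actin and tubulin, rose from 239 to 269 FPKM, by 0.17 on the log2 scale (SE 0.028, adjusted p = 0.0049 in limma). Yeats4 (24.5 against 24.6 FPKM) and Frs2 (2.43 against 2.39 FPKM) did not pass.

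Around Rnase4 and Ang lie 31 other annotated genes within 250 kb, 20 of them listed at 0 in all 6 libraries. The silent ones include family members that flank the pair, such as Rnase6, Rnase1, Rnase12 and Ang2. Of the 6 genes tested with limma, 0 rose and 0 fell, and at an unadjusted p under 0.05 the counts were also 0 and 0, with differences from -0.16 to 0.081. Pnp, a purine salvage enzyme and the nearest of them at 125840 bases, measured 7.36 against 7.87 FPKM (limma adjusted p = 0.27). Next came Pip4p1 (12.3 against 12.5 FPKM), the DNA repair gene Apex1 (36.5 against 38.7 FPKM) and Osgep (4.87 against 4.54 FPKM). Pip4p1 and Apex1 overlap on opposite strands, so without the strand setting their reads are uncertain. The bodies of Pnp2 and Gm49342 lie inside that of Pnp on the same strand. Exons they share with Pnp, if any, would not be separated by a strand setting.

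**Figure D4:**
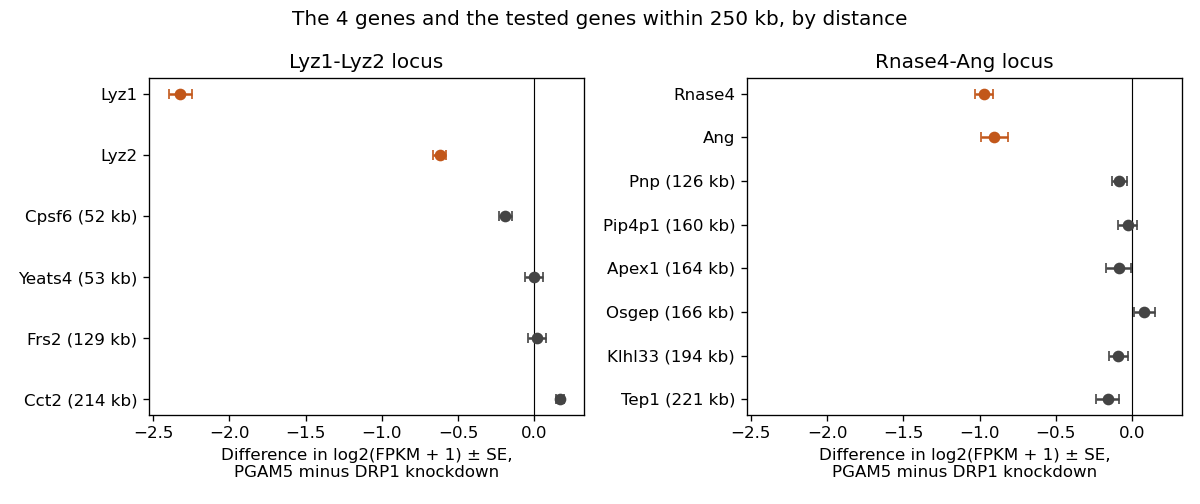
Difference in log2(FPKM + 1) with its SE, PGAM5 minus DRP1 knockdown, for the 4 genes (orange) and the tested genes within 250 kb of each locus (grey, with their distance in kb). The grey points lie between -0.19 and 0.17, closer to 0 than Lyz2 at -0.62 and Lyz1 at -2.32 on the left, or Rnase4 at -0.97 and Ang at -0.90 on the right.

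The rest of both families was nearly silent. None of the 8 other lysozyme-type genes reached the filter, and 7 of them were listed at 0 in all 6 libraries. Lyzl4, a lysozyme-like gene, had at most 2 reads in a library. Of the 18 other RNase A family genes found, 17 were at 0 throughout and Rnase2a had at most 2 reads per library. A count of 0 allows up to 3 reads, which for Ang corresponds to 0.114 to 0.155 FPKM.

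Partners of the ribonucleases and other RNA-degrading enzymes went both ways. Of these 8 tested genes, 1 rose and 2 fell while 5 did not pass, at a median difference of -0.01, where 25.4% of all genes tested were called (13.8% rose and 11.7% fell). Rnh1, the cytosolic inhibitor that binds RNase A family enzymes, fell from 269 ± 2.70 to 245 ± 5.49 FPKM (SD, n = 3; log2 difference -0.14, limma adjusted p = 0.011). Pld3, a lysosomal nuclease, fell from 71.9 to 57.3 FPKM (-0.32) and Rnaseh2c, a subunit of ribonuclease H2, rose from 9.97 to 12.8 FPKM (0.33). Plxnb2, a receptor for angiogenin, did not pass, at 63.6 ± 4.42 against 59.8 ± 0.25 FPKM. Rnh1 lost its call without DRP1 knockdown library 3 (limma adjusted p = 0.0511), which left 1 that fell, and without PGAM5 knockdown library 3 there were 2 that rose.

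Other antibacterial effectors of macrophages fell or did not pass. In limma 0 of the 13 tested genes rose and 7 fell, while 6 did not pass, at a median difference of -0.11, against 13.8% that rose and 11.7% that fell over all genes. At an unadjusted p under 0.05, 1 rose and 8 fell. Slpi, a secreted protease inhibitor with antibacterial activity, measured 1.14 to 1.76 FPKM in the PGAM5 knockdown libraries and 2.32 to 3.52 FPKM in those of the DRP1 knockdown, a log2 difference of -0.79 (SE 0.15; adjusted p = 0.0086 in limma). Cybb, the catalytic subunit of the phagocyte oxidase, fell from 48.3 ± 1.47 to 28.3 ± 1.32 FPKM (-0.75). Slc11a1, which pumps metal ions out of the phagosome, fell from 48.8 ± 0.44 to 31.1 ± 1.29 FPKM (-0.64). The oxidase genes Ncf1 and Ncf4 also fell, and Cyba did not pass. Lcn2, which captures bacterial iron carriers, measured 84.4 ± 3.14 against 79.3 ± 0.87 FPKM and did not pass; it was the 1 gene of the list that rose without PGAM5 knockdown library 2. Granule proteins of neutrophils such as Ltf and Ngp were at 0 in all libraries.

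Genes that sense or carry peptidoglycan fragments, the product of lysozyme, went both ways. Of 15 tested 7 rose, 2 fell and 6 did not pass, with a median difference of 0.12. Over all genes 13.8% rose and 11.7% fell. Card9, an adaptor of NOD2 and C-type lectin signals, rose from 37.1 ± 0.61 to 49.6 ± 1.80 FPKM (0.41). Slc15a3, a lysosomal peptide transporter that exports muramyl dipeptide, rose from 26.1 ± 0.74 to 35.0 ± 0.86 FPKM (0.41), and Hk2, a hexokinase that binds a peptidoglycan sugar, rose by 0.26. Tlr1, a receptor for bacterial lipopeptides, fell from 2.81 to 1.92 FPKM (-0.38), as did the lysosomal transporter gene Slc46a3 (-0.32). Slc46a3 was called at a limma adjusted p of 0.045, and the call ended without library 1 or 3 of the PGAM5 knockdown, without library 2 or 3 of the DRP1 knockdown, with no filter and with no trend (adjusted p reaching 0.135). The receptor gene Nod2 (1.73 against 1.76 FPKM) and its kinase Ripk2 (17.5 against 16.1 FPKM) did not pass.

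Of 18 tested transcription factors that are described at myeloid or lysozyme promoters, 2 rose, 3 fell and 13 did not pass, with a median difference of -0.05. That is close to the 25.4% called over all genes (13.8% higher, 11.7% lower). Cebpa, a factor of the myeloid lineage, stood at 1.71, 1.46 and 1.24 FPKM in PGAM5 knockdown libraries 1 to 3 and at 3.18, 2.14 and 2.96 FPKM in those of the DRP1 knockdown, lower by a log2 difference of -0.60 (SE 0.12; adjusted p = 0.012 in limma). Elf1, an ETS-family factor, fell from 19.1 to 15.3 FPKM (-0.30) and Cebpb from 440 to 398 FPKM (-0.15). Cebpd (109 against 81.5 FPKM, 0.42) and the ETS-family gene Ets2 (164 against 134 FPKM, 0.29) rose. Spi1, which makes the ETS-family factor PU.1, measured 193 ± 2.69 and 191 ± 0.39 FPKM, and Gabpa 13.6 ± 0.59 and 13.7 ± 0.22 FPKM; neither passed. The Cebpb call ended without library 2 or 3 of the DRP1 knockdown, with no filter on low values and with the replicate number as a block (limma adjusted p-values reaching 0.0737).

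**Figure D5:**
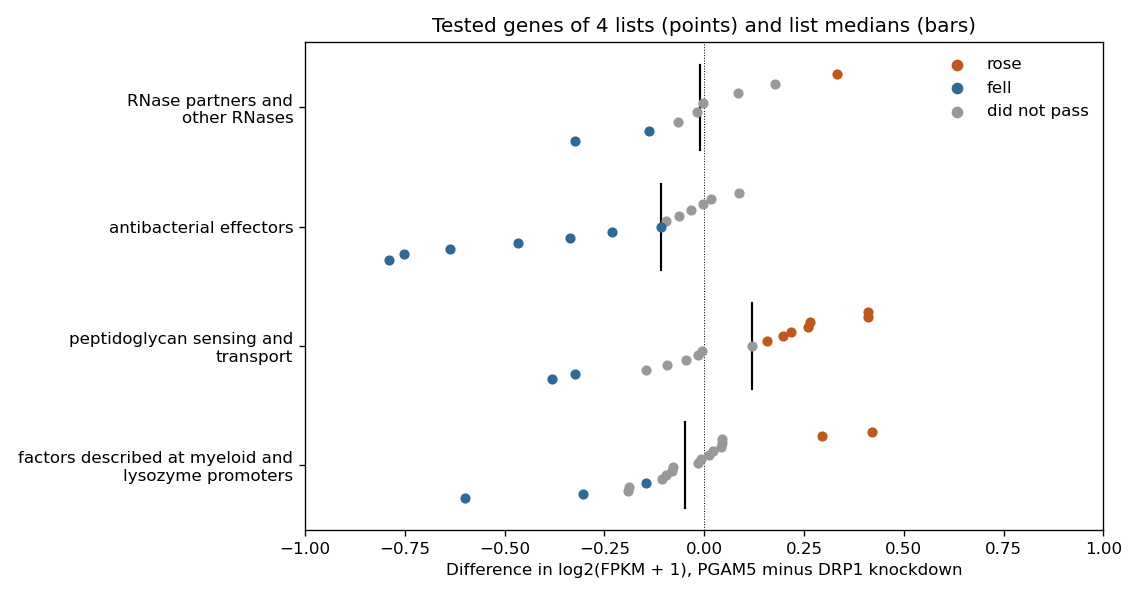
Difference in log2(FPKM + 1), PGAM5 minus DRP1 knockdown, of each tested gene in 4 lists, coloured by whether it rose, fell or did not pass an adjusted p of 0.05 in limma; black bars are list medians. The antibacterial effectors lie on the left of 0 or near it, with 7 of 13 that fell, and the peptidoglycan genes lean to the right, with 7 of 15 that rose.

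The knockdowns and the cell type were checked in the same values. Pgam5 measured 4.60 to 5.21 FPKM with PGAM5 knockdown and 17.1 to 17.3 FPKM with DRP1 knockdown, and Dnm1l, the gene of DRP1, 17.2 to 18.7 and 7.12 to 8.18 FPKM. Of 14 macrophage markers 11 were tested with limma, 0 rose, 6 fell and 5 did not pass (0 and 7 at an unadjusted p under 0.05), where 13.8% of all genes rose and 11.7% fell. Their summed levels were 3170 to 3245 against 3632 to 3662 FPKM. Cd14 (1649 against 1709 FPKM) and Cd68 (501 against 682 FPKM) were the most abundant, followed by Fcer1g (319 against 346 FPKM) and Tyrobp (292 against 366 FPKM), whose order differed between the groups. Cd68, Fcer1g and Tyrobp fell, and Cd14 did not pass. Mertk was at or near 0, and Cybb and Spi1 are also in the lists above. Csf1r, the receptor for the macrophage growth factor, fell from 212 to 139 FPKM. The 6 markers that fell moved with the lysozymes, the ribonuclease pair and the antibacterial effectors, and their part in those differences was not tested. Spi1 and Adgre1 (43.9 against 43.4 FPKM) were among the 5 that did not pass. Bulk RNA does not by itself tell a smaller share of cells of a type from less RNA per cell, and neither was tested.

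Markers of other cell types were at or near 0. Summed levels were at most 0.404 FPKM over 12 neutrophil and granulocyte markers, highest in Prtn3 with 7 markers at 0, and 0.0230 over 8 stromal ones, highest in Lum with 5 at 0. They reached 0.513 over 7 dendritic markers, highest in Xcr1 with 1 at 0, and 0.309 over 8 lymphocyte markers, highest in Cd79a with 6 at 0. Of 9 markers of gut epithelium and Paneth cells, the cells best known for Lyz1, 6 were at 0, among them Epcam and Mptx2. Their sum was 0.641 to 1.10 FPKM with PGAM5 knockdown and 0.0991 to 0.240 with DRP1 knockdown, nearly all from Itln1, and so was higher where Lyz1 was lower.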

How the data were processed

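RNA levels were read from 6 files of FPKM deposited by the authors, 1 per library; per the submitters' processing notes, reads were aligned with HISAT2 2.0.5 to mm10 and counted with featureCounts 1.5.0-p3. For the FPKM formula, annotation, read length and strand setting: not given in the sources used here. Symbols and exonic lengths came from GENCODE M21 (54409 of 54532 identifiers matched), and promoter windows from RefSeq on GRCm38.p6, where 4 of the 4 genes matched. Library depths of 16111282 to 21933544 reads were sought so that values multiplied by length and depth came out whole. With them 96.1% of the values above 0 did (tolerance 0.02), those of the 4 genes among them. The reads quoted come from this and set the precision, for counting error only. Summed over genes they exceeded the depth in each library (18771611 against 17765132 in PGAM5 knockdown library 1), and the reason was not tested.

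The test was limma 3.58.1 (R 4.3.3; empirical Bayes with trend, two-sided) for genes with a mean of at least 1 FPKM, after adding 1 and taking log2, with Benjamini-Hochberg adjustment over 10634 genes and a threshold of 0.05. The labels do not say whether the numbers 1 to 3 mark separate cultures or hairpins, so p-values measure the spread between these libraries. Pearson correlations were 0.993 to 0.995 within groups and 0.986 to 0.988 between them.

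The 4 genes, the lists and the tests were chosen with earlier results of these data known, and the motifs after the windows had been read. The naming rule took up to 3 called genes per list and direction (otherwise the most abundant), the 4 nearest tested neighbours per locus, called neighbours, the 3 closest profiles per gene (Gm and Rik symbols left out) and the leading markers; other list members are examples named after their values were seen. Alternatives were a pseudocount of 0.1, no filter, quantile normalization, no trend, the replicate number as a block, leaving out each library, other windows and unshared exonic length. On simulated data for this comparison with 10617 genes, 86% of genes changed 1.5-fold and 98% of those changed 2-fold were recovered, with 13 false among 181 calls. Of those changed 1.25-fold 55.1% were recovered, so a gene that did not pass may still differ by a small fold. The simulation used an assumed dispersion of 0.002 and changed far fewer genes than were called in the data.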

Additional observations from a re-analysis of the deposited data

How the results depend on the processing

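No difference changed direction for Lyz1, Lyz2, Rnase4 or Ang under the alternatives run. With a pseudocount of 0.1 the log2 differences moved to -2.54 for Lyz1, -1.11 for Rnase4 and -1.56 for Ang, since less is added to low values. Leaving out each library in turn gave -2.41 to -2.27 for Lyz1, -0.67 to -0.60 for Lyz2, -1.0 to -0.93 for Rnase4 and -0.97 to -0.84 for Ang. Over all genes these omissions gave 819 to 1287 genes that fell, the lowest without DRP1 knockdown library 3 (819) and library 2 (822), against 1240 with all libraries, and 980 to 1456 that rose. By list they gave 1 to 2 that rose and 1 to 2 that fell among ribonuclease partners, 0 to 1 that rose and 6 to 9 that fell among antibacterial effectors, and 5 to 7 that rose and 1 to 2 that fell among peptidoglycan genes. Next to the lysozymes 0 to 1 fell, with 0 when library 2 of the PGAM5 knockdown or library 1 or 2 of the DRP1 knockdown was left out, and 0 rose within 100 kb, where 2 genes were tested. Among the peptidoglycan genes 1 fell with no filter on low values and 1 with no trend. The replicate numbers did not pair the libraries: the correlations of same-numbered libraries' deviations from their group means were 0.021, 0.031 and 0. With the replicate block the differences stayed at -2.32, -0.62, -0.97 and -0.90. Each number occurs once per group, so this was fixed in advance and only the errors could change. Reads limit Ang most, with 10 to 17 per PGAM5 knockdown library.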

Other observations

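Itln1, which makes a lectin that binds bacterial sugars, lay below the filter and was not tested. Its groups did not overlap, as was so for 43.5% of the genes tested. It measured 0.641, 0.752 and 1.10 FPKM in PGAM5 knockdown libraries 1 to 3 and 0.109, 0.0991 and 0.240 FPKM in DRP1 knockdown libraries 1 to 3. It was thus higher with PGAM5 knockdown, on 13 to 23 reads against 2 to 6, and it was picked out after its values were seen.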
